A study of Homo sapiens with 18 samples.

Results

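The TAM receptor tyrosine kinases AXL, MERTK and TYRO3 and their ligands GAS6 and PROS1 were followed by RNA sequencing of 3 human melanoma cell lines, each overexpressing MAFG or, as control, GFP. These 5 genes were chosen by their symbols among the 58870 genes of the count table, and all 5 were found. The study asked how MAFG, a small MAF transcription factor without a transactivation domain of its own, acts on melanoma cells. WM164 and SKMEL28 are lines with melanocytic gene expression, and A375 is a line in which melanocytic genes are scarce. The 18 libraries fell into 6 groups of 3: WM164 cells overexpressing GFP, WM164 cells overexpressing MAFG, and likewise SKMEL28 and A375 cells with either GFP or MAFG. Per the study's methods, both open reading frames were delivered by lentivirus under the constitutive EF1α promoter with a blasticidin resistance gene, and MAFG carried a Myc-DDK tag, so that every group, controls included, holds an integrated vector. The labels do not say whether the 3 libraries of a group came from separate cultures or transductions, so that p-values measure only the spread between these libraries, which may be technical.

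TAM receptors are activated by GAS6 and protein S, the product of PROS1, which bridge them to phosphatidylserine on the surface of dying cells or vesicles. GAS6 binds all members of the receptor family, whereas protein S acts on TYRO3 and MERTK and is best known as an anticoagulant of plasma. In melanoma, AXL is known as a marker of dedifferentiated, drug-tolerant states, while MERTK and TYRO3 are commonly found in pigmented, MITF-positive cells.

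Libraries held 20122172 to 39025042 counts, with a median of 31061375, and levels are given as CPM, that is, counts scaled by the TMM-normalized library sizes of all 18 libraries. Tests were made with edgeR's quasi-likelihood F test, and each adjusted p given here is a Benjamini-Hochberg value over all genes tested in that comparison. A gene passed where the adjusted p did not exceed 0.05, and was called differentially expressed where its fold change was above 2 as well, the threshold of the study.

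MAFG transcripts rose in WM164 cells from 25.8 to 53.1 CPM (log2 fold change 1.04, standard error (SE) 0.09, adjusted p = 6.37e-08 from edgeR) and in SKMEL28 cells from 24.1 to 37.3 CPM (0.64, SE 0.10, adjusted p = 1.28e-04 from edgeR). In A375 cells MAFG was at 27.0 and 47.3 CPM (0.80, SE 0.17, adjusted p = 0.0655 from edgeR), higher in every MAFG library than in every GFP library, and did not pass. It passed without the MAFG library of replicate 1 (0.69, adjusted p = 0.0247 from edgeR) or of replicate 3 (0.93, adjusted p = 0.0442 from edgeR), with DESeq2 (0.80, adjusted p = 7.80e-04) and with the spread of all 18 libraries (0.81, adjusted p = 0.00134 from edgeR). The rise was larger on the deposited TPM, where WM164 cells had 2.50 to 3.51 TPM of MAFG in the GFP libraries and 20.9 to 27.5 TPM in the MAFG libraries. The ranges were 3.23 to 4.43 and 14.1 to 19.4 TPM in SKMEL28 cells, and 3.94 to 4.52 and 22.4 to 28.2 TPM in A375 cells. On log2(TPM + 1) these are changes of 2.71, 1.85 and 2.33, each passing (adjusted p = 1.02e-06, 2.86e-04 and 6.43e-04, limma). Over all genes, the A375 MAFG library of replicate 1 stood apart from the other libraries of its group, with a mean chi-square per gene of 68.7 and 96.7 against them, where every other pair of replicates gave 5.90 to 30.2. MAFG shares 105 exonic bases with SIRT7 on the same strand. Melanocytic markers (MITF, MLANA, PMEL, TYR, DCT, TYRP1 and SOX10) summed to 4483 to 4826 CPM in WM164 cells with GFP and to 2416 to 2559 CPM with MAFG, to 4558 to 4823 and 3817 to 4064 CPM in SKMEL28 cells, and to 36.0 to 42.1 and 119 to 172 CPM in A375 cells, where MLANA, TYR and DCT had at most 3 counts in any library. The markers did not move alike. In A375 cells SOX10 went from 8.85 to 114 CPM, while MITF was at 28.6 and 27.4 CPM. In SKMEL28 cells MITF, PMEL and TYR passed as lower and TYRP1 as higher, and MLANA, DCT and SOX10 did not pass. In WM164 cells MITF, MLANA, PMEL, TYR and DCT passed as lower, SOX10 did not pass and TYRP1 was not tested. Markers of macrophages, which carry AXL and MERTK in tissue, summed to at most 1.47 CPM in any library, with PTPRC and CD163 at 3 counts or fewer in every library. The sums reached 21.3 CPM for fibroblast markers (mostly LUM), 1.03 CPM for endothelial markers and 0.933 CPM for keratinocyte markers.

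The promoter sequences of AXL and TYRO3 are shown because these receptors were the only members with a higher level in a passed MAFG comparison and because their windows held the searched motifs. RefSeq windows of 300 bases (250 before and 50 after each start site, GRCh38.p14) were found for all 5 members, with a second start site for AXL and TYRO3. Each was searched on both strands for 6 motifs. The first was TGCTGA, which is only a part of the MARE, the longer site bound by MAF proteins. The others were the AP-1 site TGACTCA, the cyclic AMP response element TGACGTCA, the E-box CACGTG, the M-box CATGTG of MITF and the TEAD site GGAATG. Below are 270 bases, from 250 before to 20 after the start, on the + strand, with matches in capitals, which read as the reverse complement of the motif where the match was on the other strand.
AXL start 1, chr19:41218973-41219242: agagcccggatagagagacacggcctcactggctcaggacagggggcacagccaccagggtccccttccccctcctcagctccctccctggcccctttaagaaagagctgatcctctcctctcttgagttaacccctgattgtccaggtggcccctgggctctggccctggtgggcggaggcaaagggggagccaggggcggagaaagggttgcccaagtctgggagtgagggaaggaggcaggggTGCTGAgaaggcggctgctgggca
AXL start 2, chr19:41226505-41226774: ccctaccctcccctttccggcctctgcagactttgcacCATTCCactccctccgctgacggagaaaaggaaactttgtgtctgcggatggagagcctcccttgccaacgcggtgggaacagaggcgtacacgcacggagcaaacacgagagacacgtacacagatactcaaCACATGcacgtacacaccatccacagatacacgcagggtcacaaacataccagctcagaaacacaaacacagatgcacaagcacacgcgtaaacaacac
TYRO3 start 1, chr15:41558962-41559231: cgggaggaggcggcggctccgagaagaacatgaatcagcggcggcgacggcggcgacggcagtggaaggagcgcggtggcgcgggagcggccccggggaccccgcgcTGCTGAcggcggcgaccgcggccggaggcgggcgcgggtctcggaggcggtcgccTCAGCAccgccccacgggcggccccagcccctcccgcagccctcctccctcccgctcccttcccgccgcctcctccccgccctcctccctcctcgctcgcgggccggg
The TGCTGA match in AXL began 4 bases before the first start site and ran over it. Those of TYRO3 began 143 and 88 bases before its start. The second AXL start had a TEAD site from 212 and an M-box from 79 bases before it. PROS1 held 1 TGCTGA match, and the windows of MERTK, GAS6 and the second TYRO3 start held none of the 6 motifs. Among 35116 RefSeq promoter windows of this length, 17.3% held TGCTGA, 14.0% the TEAD site, 11.1% the M-box and 7.26% the E-box. The AP-1 site was in 4.95% and the cyclic AMP response element in 1.85%. Such matches are thus common and are given as a description only. A short motif of this kind does not mark a bound site, and the AP-1 site, the cyclic AMP response element and the E-box were not found in these windows.

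AXL mRNA rose with MAFG in both melanocytic lines and ended far below the level of A375 cells. AXL (gene ENSG00000167601.12, chr19:41219223-41261766, + strand, GRCh38, GENCODE release 44) encodes the TAM receptor that binds GAS6 with high affinity. In WM164 cells, the 3 GFP libraries had 123, 79 and 72 AXL counts, or 4.39, 2.62 and 2.84 CPM, and the 3 MAFG libraries had 777, 825 and 936 counts, or 27.2, 30.5 and 28.9 CPM. Every MAFG library lay above every GFP library, and the lowest MAFG library was well above the highest GFP library. The means were 3.29 ± 0.96 CPM with GFP and 28.9 ± 1.65 CPM with MAFG (SD, n = 3), a log2 fold change of 3.13 (95% interval 2.83 to 3.44, SE 0.14, adjusted p = 1.35e-11 from edgeR). This was an 8.77-fold rise, the 168th largest increase among 15919 tested genes. In such bulk RNA, more cells that carry AXL mRNA and more AXL mRNA per cell cannot be told apart, and the same holds for each gene below.

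In SKMEL28 cells AXL was close to the limit of detection without MAFG. The GFP libraries held 19, 9 and 20 counts (0.633, 0.443 and 0.690 CPM), against 665, 628 and 651 counts (22.2, 22.5 and 24.4 CPM) with MAFG. The groups did not overlap, and the MAFG libraries lay close together. The mean rose from 0.589 ± 0.13 to 23.0 ± 1.21 CPM (SD, n = 3), a log2 fold change of 5.25 (95% interval 4.89 to 5.60, SE 0.17, adjusted p = 5.28e-12 from edgeR), or 38.0-fold. This was the 10th largest increase among 15523 tested genes. The size of the change depended on the scale, and on log2(TPM + 1), which understates changes of low values, it was 2.05 in SKMEL28 and 1.81 in WM164 cells.

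AXL in A375 cells was abundant with and without MAFG. Counts were 23608, 22808 and 23773 with GFP and 26984, 20581 and 23474 with MAFG, or 615, 620 and 663 against 682, 545 and 546 CPM. The groups overlapped, the MAFG library of replicate 1 being the highest of all 6 and the other MAFG libraries the lowest. The log2 fold change was -0.11 (95% interval -0.32 to 0.11, SE 0.10, adjusted p = 0.997 from edgeR). AXL shares 67 exonic bases with an antisense lncRNA, ENSG00000269652, which had 0 counts in every library.

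**Figure D1:**
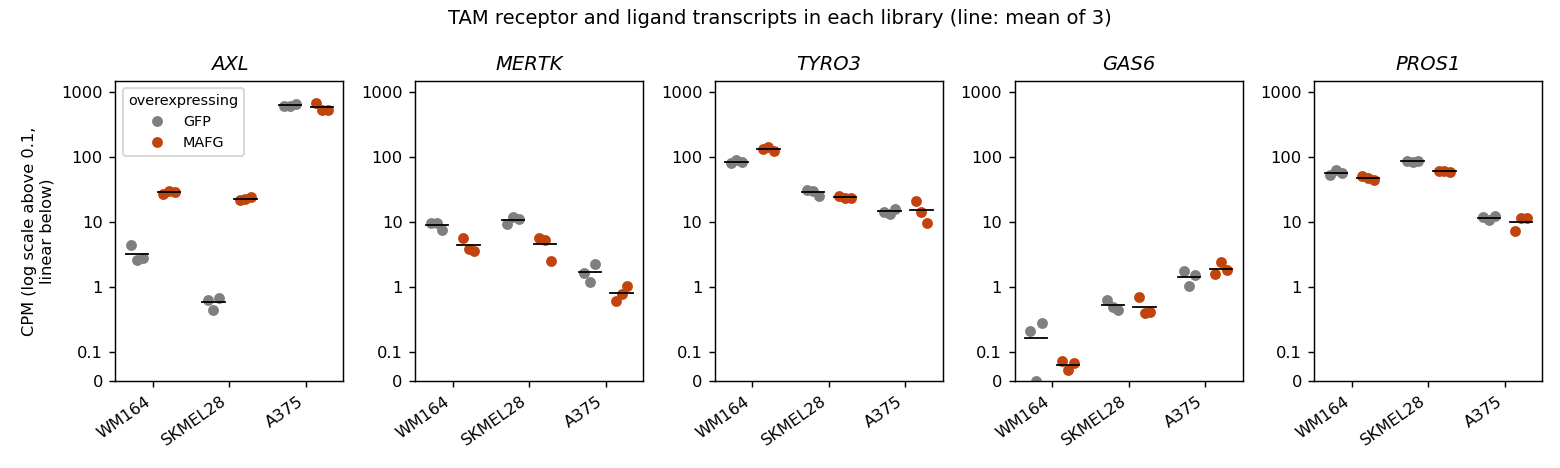
CPM of the 5 genes in each of the 18 libraries (points, 3 per group; black line, group mean), on an axis that is logarithmic above 0.1 and linear below; grey, GFP; orange, MAFG. AXL with MAFG lies at 22.2 to 30.5 CPM in WM164 and SKMEL28 cells, between their GFP libraries (at most 4.39 CPM) and A375 cells (at least 545 CPM). On this scale MERTK is lower with MAFG in each line, without passing in A375 cells.

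MERTK moved against AXL: it fell with MAFG in both melanocytic lines. MERTK (ENSG00000153208, chr2:111898607-112029561, + strand) encodes the receptor best known for the clearance of dying cells by phagocytes and of photoreceptor outer segments in the retina. WM164 cells had 9.82, 9.59 and 7.47 CPM with GFP and 5.74, 3.92 and 3.55 CPM with MAFG. All MAFG libraries were below all GFP libraries, and the log2 fold change was -1.03 (95% interval -1.41 to -0.65, SE 0.18, adjusted p = 2.25e-04 from edgeR), so that 49.0% of the GFP level was left. SKMEL28 cells had 9.43, 11.9 and 11.3 CPM with GFP and 5.81, 5.34 and 2.55 CPM with MAFG. Here, too, the groups were apart, with the MAFG library of replicate 3 far below the others. The log2 fold change was -1.24 (95% interval -1.72 to -0.76, SE 0.23, adjusted p = 5.84e-04 from edgeR), leaving 42.4%. Without that library the change in SKMEL28 cells was -0.95 and still passed (adjusted p = 5.81e-04 from edgeR).

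In A375 cells MERTK was scarce, at 64, 44 and 82 counts with GFP and 24, 30 and 45 with MAFG. This is 1.67, 1.20 and 2.29 CPM against 0.607, 0.795 and 1.05 CPM, again with no overlap between the groups. The log2 fold change, -1.07, was close to those of the other lines but had a wide interval (-2.03 to -0.11, SE 0.43). It did not pass (adjusted p = 0.682 from edgeR, 0.0326 before adjustment). On the deposited TPM the A375 groups overlapped, at 0.47, 0.27 and 0.44 TPM with GFP and 0.13, 0.76 and 0.24 TPM with MAFG. On log2(TPM + 1) of all genes the A375 change was -0.04. The fall of MERTK in WM164 cells was lost on the deposited TPM values (log2(TPM + 1): -0.30, adjusted p = 0.282 from limma), where 1 MAFG library at 1.62 TPM lay level with the GFP libraries at 1.31 to 1.62 TPM.

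TYRO3 rose in WM164 cells only moderately. TYRO3 (ENSG00000092445.12, chr15:41557675-41583589, + strand) encodes the receptor of the family that is prominent in the nervous system. In WM164 cells its libraries were at 81.2, 90.7 and 83.8 CPM with GFP and at 136, 142 and 127 CPM with MAFG. The groups did not overlap, and the log2 fold change was 0.66 (95% interval 0.53 to 0.79, SE 0.06, adjusted p = 1.98e-07 from edgeR), or 1.58-fold, which is under the 2-fold threshold for differential expression. SKMEL28 cells gave 31.4, 30.0 and 25.6 CPM with GFP and 25.6, 24.0 and 24.1 CPM with MAFG. The MAFG libraries were all lower, though the highest of them barely so, and the log2 fold change of -0.24 (95% interval -0.43 to -0.05, SE 0.09) did not pass (adjusted p = 0.0581, edgeR). It passed without the GFP library of replicate 3 (-0.32, adjusted p = 0.0197 from edgeR).

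In A375 cells TYRO3 was at 14.6, 13.4 and 16.0 CPM with GFP and at 21.5, 14.4 and 9.91 CPM with MAFG. The MAFG libraries spread on both sides of the GFP libraries, and the log2 fold change was 0.04 (95% interval -0.46 to 0.54, adjusted p = 0.997 from edgeR). Its sign turned with the scale, to -0.09 on log2(TPM + 1), and without the MAFG library of replicate 1, to -0.26. TYRO3P, a pseudogene copy whose reads could be confused with those of TYRO3, had 11 to 54 counts per library and overlapped between MAFG and GFP in each line.

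Of the ligands, PROS1 was well expressed and fell with MAFG in both melanocytic lines, while GAS6 was scarce throughout. PROS1 (ENSG00000184500, chr3:93873051-93980003, - strand) had 54.2, 63.4 and 56.8 CPM in WM164 cells with GFP and 50.7, 48.6 and 44.3 CPM with MAFG. The groups lay apart by a small gap, with a log2 fold change of -0.28 (95% interval -0.44 to -0.12, SE 0.08, adjusted p = 0.00810 from edgeR). In SKMEL28 cells PROS1 was at 89.2, 85.3 and 86.5 CPM with GFP and at 61.0, 61.0 and 59.9 CPM with MAFG. The replicates were tight, and the log2 fold change of -0.52 (95% interval -0.64 to -0.40, SE 0.06, adjusted p = 5.76e-06 from edgeR) left 69.7% of the GFP level. A375 cells had 12.2, 10.7 and 12.6 CPM with GFP and 7.25, 11.8 and 11.5 CPM with MAFG. These overlapped, with 1 low MAFG library, and the log2 fold change was -0.22 (95% interval -0.67 to 0.23, adjusted p = 0.997 from edgeR). The decrease in WM164 cells did not pass on log2(TPM + 1) (-0.09, adjusted p = 0.716 from limma) or when the spread was estimated over all 18 libraries (adjusted p = 0.133, edgeR).

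GAS6 (ENSG00000183087.15, chr13:113820549-113864076, - strand), which unlike PROS1 also activates AXL, had 6, 0 and 7 counts in WM164 cells with GFP and 2, 1 and 2 with MAFG. It was not tested there, and the 5 counts with MAFG against 13 with GFP amount to 36.5% of the GFP level, with an exact interval for counting error alone of 10.2 to 109%. SKMEL28 cells had 19, 10 and 13 counts with GFP and 21, 11 and 11 with MAFG. The groups overlapped, and a log2 fold change of -0.06 had an interval from -1.18 to 1.06 (adjusted p = 0.949, edgeR), so that changes of up to about that size were not detectable at this depth. A375 cells had 1.75, 1.03 and 1.53 CPM with GFP and 1.57, 2.41 and 1.84 CPM with MAFG. These overlapped as well (log2 fold change 0.43, 95% interval -0.36 to 1.22, adjusted p = 0.997 from edgeR). GAS6 shares 421 exonic bases with GAS6-AS1 on the opposite strand, which had up to 198 counts per library. The labels name a kit without strand and the study's methods a strand-specific one, so reads of the shared bases may belong to either gene.

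Counting the members per line, 4 of the 4 tested in WM164 cells passed the test (AXL and TYRO3 higher, MERTK and PROS1 lower), where 31.8% of all tested genes passed. AXL and MERTK were differentially expressed, as were 6.94% of all tested genes. In SKMEL28 cells 3 of 5 passed (AXL higher, MERTK and PROS1 lower) against 29.9% of all tested genes, and AXL and MERTK were again differentially expressed, against 4.74%. None of the 5 passed in A375 cells with edgeR, where 0.843% of tested genes passed and 0.665% were differentially expressed. DESeq2 called none of the 5 in A375 cells either. Without the A375 MAFG library of replicate 1 none of the 5 passed, at adjusted p values of 0.185 to 0.987 (edgeR).

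**Figure D2:**
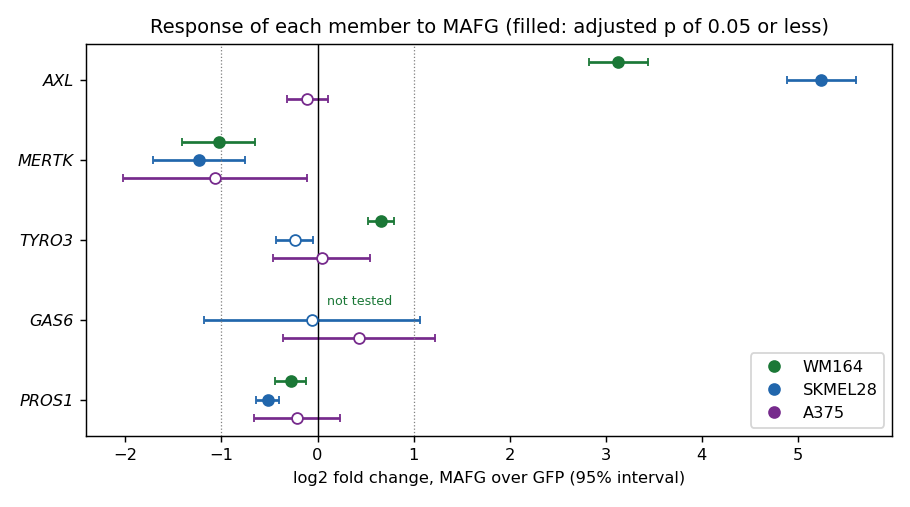
Log2 fold change of MAFG over GFP with its 95% interval for each gene and line; filled points passed the test, and dotted lines mark a 2-fold change. AXL stands at 3.13 in WM164 and 5.25 in SKMEL28 cells and at -0.11 in A375 cells. MERTK lies between -1.03 and -1.24 in all 3 lines, and did not pass in A375 cells.

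Whether the lines differed in their response was tested in a single model of all 18 libraries. The AXL response was larger in SKMEL28 than in WM164 cells by 2.11 on the log2 scale, written as a WM164 minus SKMEL28 difference of -2.11 (SE 0.26, adjusted p = 1.02e-05 from edgeR). Against A375 cells, it was larger by 3.23 in WM164 (SE 0.18, adjusted p = 6.66e-11 from edgeR) and by 5.34 in SKMEL28 cells (SE 0.22, adjusted p = 2.86e-12 from edgeR). On log2(TPM + 1) the difference between WM164 and SKMEL28 cells shrank to -0.24 and did not pass (adjusted p = 0.230, limma). SKMEL28 cells with GFP had 0.08 to 0.12 TPM of AXL, below the added 1. The TYRO3 response differed between WM164 and SKMEL28 cells by 0.90 (SE 0.23, adjusted p = 0.0115 from edgeR). For TYRO3 in WM164 against A375 cells, a difference of 0.61 (95% interval 0.12 to 1.09) did not pass (adjusted p = 0.120, edgeR), but it did at 0.94 without the A375 MAFG library of replicate 1.

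No difference between lines passed for MERTK, GAS6 or PROS1. For MERTK the intervals of the difference ran from -0.59 to 1.02 (WM164 minus SKMEL28), from -0.78 to 0.86 (WM164 minus A375) and from -1.08 to 0.72 (SKMEL28 minus A375). MERTK missed the threshold in A375 cells alone, but the tests of its response there against the other lines did not pass. The intervals for PROS1 were narrower, the widest running from -0.67 to 0.07 for SKMEL28 minus A375, and that difference passed at -0.50 without the A375 MAFG library of replicate 1 (adjusted p = 0.00742 from edgeR). Over all tested genes, 13.7% differed in response between WM164 and SKMEL28 cells, where 2 of the 5 members did. The shares were 9.21% for WM164 against A375 and 9.51% for SKMEL28 against A375, and AXL alone passed in each.

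With GFP alone, the 3 lines carried different sets of TAM transcripts. AXL was higher in A375 than in WM164 cells by 7.59 on the log2 scale (192-fold) and higher than in SKMEL28 cells by 10.02 (1041-fold), and WM164 cells had 2.44 more than SKMEL28 cells (adjusted p = 1.15e-19, 2.45e-20 and 1.35e-08 from edgeR). MERTK, TYRO3 and PROS1 were lower in A375 than in WM164 cells, by log2 differences of -2.38, -2.54 and -2.30, and lower than in SKMEL28 cells by -2.66, -0.98 and -2.88. The antisense GAS6-AS1, which shares exonic bases with GAS6, followed the same order of lines. It had 182 to 198 counts per GFP library in A375, 122 to 145 in SKMEL28 and 0 to 5 in WM164 cells. Its part in the GAS6 counts was not tested. GAS6 was higher in A375 cells, by 3.14 and 1.44. The first was 2.53 without the WM164 GFP library of replicate 2 and 3.73 without that of replicate 3, and the second came with adjusted p values of 0.0544 to 0.0817 (edgeR) without GFP replicate 1 or 3 of A375 or 2 or 3 of SKMEL28. All 5 members passed both comparisons, but so did 71.5% of all tested genes for A375 against WM164 and 68.6% for A375 against SKMEL28. Between WM164 and SKMEL28 cells, 4 of 5 passed against 56.8% of all tested genes: TYRO3 was higher in WM164 (1.56), and PROS1 (-0.58) and GAS6 (-1.70) were lower, the last on at most 19 counts a library and not passing without GFP replicate 2 of WM164 (-1.09) or 1 of SKMEL28 (-1.53). MERTK differed by -0.27 (95% interval -0.83 to 0.28), which did not pass, but it passed on log2(TPM + 1) (-0.75, adjusted p = 0.00331 from limma) and log2(TPM + 0.1) (-1.05, adjusted p = 0.0353 from limma).

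The AXL level that WM164 and SKMEL28 cells reached with MAFG was then set against that of A375 cells with GFP. WM164 cells with MAFG stayed below it by -4.45 on the log2 scale (SE 0.12, adjusted p = 1.53e-17 from edgeR), that is, at 4.56% of the A375 level. SKMEL28 cells with MAFG stayed at 3.64% (log2 difference -4.78, SE 0.13, adjusted p = 6.96e-18 from edgeR). Without MAFG, A375 cells had 192-fold and 1041-fold more than these lines. Over the 6 groups, the order of AXL was A375 with GFP, A375 with MAFG, WM164 with MAFG, SKMEL28 with MAFG, WM164 with GFP and SKMEL28 with GFP, and only the A375 groups overlapped. Both comparisons share the A375 GFP libraries.

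The other members kept to their own side of A375. With MAFG, MERTK was still above the A375 GFP level by 1.36 in WM164 and 1.41 in SKMEL28 cells, TYRO3 by 3.20 and 0.74, and PROS1 by 2.02 and 2.36 (log2 differences, all passing with edgeR). GAS6 in SKMEL28 cells with MAFG was below it by -1.50 (adjusted p = 0.0216, edgeR), a call that was lost without the MAFG library of replicate 2 (-1.36) or 3 (-1.38) or the A375 GFP library of replicate 1 (-1.35), and in WM164 cells its 5 counts in 3 libraries came to 3.94% of the A375 GFP level (exact counting interval 1.26 to 9.39%). GAS6-AS1 had 154 to 172 counts per MAFG library in SKMEL28 and 4 to 6 in WM164 cells. All 5 members passed in each comparison, with 71.9% of all tested genes passing for WM164 with MAFG and 68.8% for SKMEL28 with MAFG.

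Levels of different genes can be compared per length, on the deposited TPM values. In WM164 cells with GFP, TYRO3 made up 83.0% of the summed TPM of the receptors, MERTK 13.0% and AXL 4.01% (means of 3 libraries). With MAFG, AXL was at 17.3%, TYRO3 at 78.4% and MERTK at 4.36%, and the sum rose from 9.65 to 12.7 TPM over the GFP libraries to 21.1 to 24.6 TPM over the MAFG libraries. TYRO3 was in both groups the most abundant receptor transcript of WM164 cells. In SKMEL28 cells the sum was nearly level, at 7.72 to 8.60 TPM with GFP and 8.89 to 9.68 TPM with MAFG, while its make-up moved: AXL went from 1.25% ± 0.27 to 38.3% ± 1.95 (SD, n = 3), MERTK from 38.1% to 14.1% and TYRO3 from 60.6% to 47.7%. In A375 cells AXL was 97.8% of the sum with GFP and 97.6% with MAFG, at a sum of 104 to 123 and 91.8 to 101 TPM. Among the ligands, PROS1 was 98.9% to 99.8% of the summed TPM in the 4 groups of WM164 and SKMEL28 cells and 85.9% and 79.6% in A375 cells with GFP and MAFG. These shares are a description, with no test. The sums depend on the scale. On log2(TPM + 1) the median change of all genes was 0.14 in WM164 and -0.14 in SKMEL28 cells. TYRO3 in WM164 cells went from a mean of 9.32 to 18.3 TPM, but from 85.3 to 135 CPM.

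**Figure D3:**
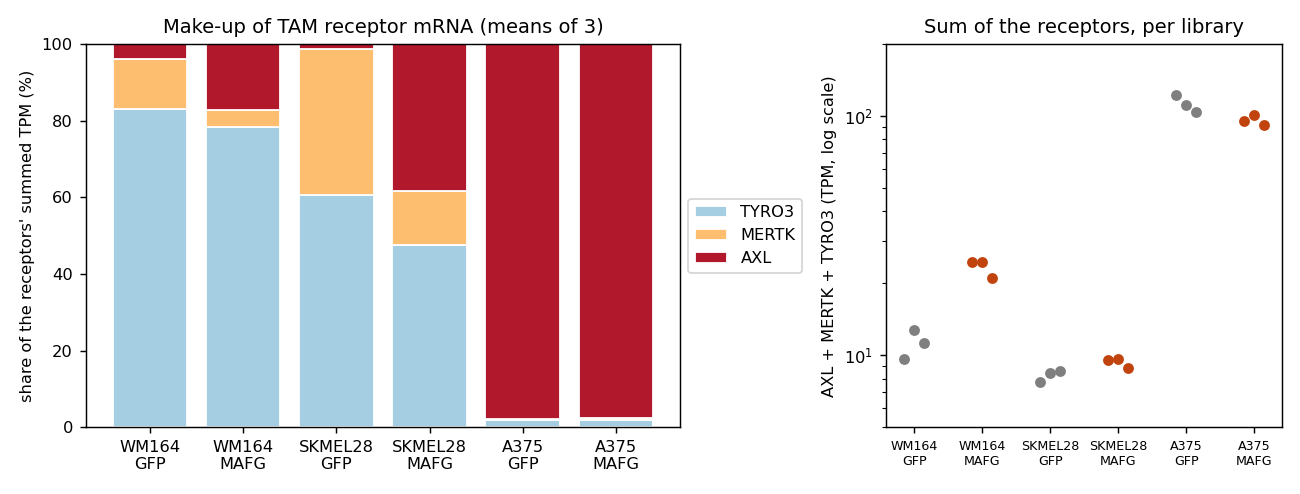
Left, the mean share (%) of TYRO3, MERTK and AXL in their summed TPM for each group of 3 libraries; right, that sum in each library (TPM, log axis; grey, GFP; orange, MAFG). The AXL share goes from 1.25% to 38.3% in SKMEL28 cells and from 4.01% to 17.3% in WM164 cells, and stays above 97% in every A375 library.

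Around the receptors, 67 genes of the pathway were followed in 9 lists: other ligands of MERTK, vitamin K carboxylation, receptor shedding, adaptors and kinases, phosphatidylserine exposure, other phosphatidylserine receptors, engulfment, factors described to act on AXL, and receptor kinases described to pair with AXL. In WM164 cells 24 of 61 tested genes passed as higher and 11 as lower, where 16.2% of all tested genes passed as higher and 15.6% as lower, and 9 were differentially expressed (14.8%, against 6.94% of all tested genes). In SKMEL28 cells 6 of 60 passed as higher and 24 as lower, against 14.6% and 15.3% of all tested genes, with 4 differentially expressed (6.67%, against 4.74%). In A375 cells 2 of 58 passed, both higher, where 0.78% of all tested genes were higher and 0.0634% lower. The pathway genes had a median log2 fold change of 0.05 (WM164), -0.13 (SKMEL28) and -0.04 (A375), beside medians of all tested genes of -0.00153, -0.00800 and -0.00037.

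These splits depended on the scale. On log2(TPM + 1) the median of all genes moved to 0.14 for WM164, -0.14 for SKMEL28 and -0.10 for A375. The share of genes higher among all genes that passed went there from 50.9% to 81.2% in WM164 cells and from 48.8% to 18.3% in SKMEL28 cells. The pathway genes split on that scale into 19 higher and 1 lower in WM164 cells and 0 higher and 25 lower in SKMEL28 cells, with medians of 0.19 and -0.32, so that counts of direction below are relative to the TMM scale. With DESeq2 size factors the splits were 24 to 11 and 6 to 24, as on the TMM scale. Of the pathway genes that passed, VAV3 in WM164 cells alone had another sign on log2(TPM + 1) (-0.61 on the TMM scale and 0.19 there).

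The enzymes that modify the ligands and shed the receptors had small changes, with list medians of 0.02, -0.10 and -0.04 for vitamin K carboxylation and of -0.14, -0.14 and 0.08 for shedding in WM164, SKMEL28 and A375 cells. GGCX, the carboxylase that makes GAS6 and protein S able to bind phosphatidylserine, had log2 fold changes of 0.05, -0.16 and -0.04 in WM164, SKMEL28 and A375 cells, and passed in none. VKORC1L1 of the same list of 3 was higher in SKMEL28 cells (0.33, adjusted p = 0.0129 from edgeR). ADAM10 and ADAM17 cleave AXL and MERTK from the cell surface. ADAM17 fell in SKMEL28 cells (45.0 to 34.8 CPM, log2 fold change -0.37, adjusted p = 0.00522 from edgeR), and neither passed in the other lines (-0.11 and -0.17 in WM164, 0.02 and 0.13 in A375), except ADAM17 in WM164 cells without the GFP library of replicate 1 (-0.22, adjusted p = 0.0460 from edgeR). ADAM10 in SKMEL28 cells was at 0.09 and did not pass. Of the other ligands of MERTK, LGALS3 (galectin-3) fell in WM164 (-0.19) and SKMEL28 cells (-0.23), and TUB did not pass in any line. The medians of this list were -0.29, -0.06 and 0.06 in the 3 lines in the same order.

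Among 21 adaptors and kinases, 7 were higher and 6 lower in WM164 cells, and 1 was higher and 10 lower in SKMEL28 cells, with list medians of -0.08 and -0.25 (-0.05 in A375 cells). The tyrosine kinase SRC rose in WM164 cells from 0.220 to 1.25 CPM (log2 fold change 2.50, adjusted p = 7.27e-04 from edgeR) and fell in SKMEL28 cells from 36.2 to 18.7 CPM (-0.95, adjusted p = 6.80e-07 from edgeR). SOCS1 and SOCS3, inhibitors of cytokine signalling that TAM receptors are known to induce in immune cells, rose in WM164 cells by 2.30 (to 1.62 CPM) and 1.21 (from 22.7 to 52.4 CPM) and did not pass in SKMEL28 cells. The SOCS1 call was lost with the spread of all 18 libraries (2.30, adjusted p = 0.0583 from edgeR) and on log2(TPM + 1) of all genes (0.56, adjusted p = 0.104 from limma), and that of SRC in WM164 cells, at 5 to 8 counts per GFP library, on the latter (0.27, adjusted p = 0.325 from limma). Of 6 genes of phosphatidylserine exposure, the scramblase XKR8 fell in WM164 cells to 0.754 CPM (-1.12, adjusted p = 0.0296 from edgeR), a call lost without any of 4 of the 6 libraries (adjusted p 0.0766 to 0.0910, edgeR). PLSCR1 fell in WM164 (-0.75) and SKMEL28 cells (-0.36). The list medians were -0.07, -0.12 and 0.01 in WM164, SKMEL28 and A375 cells.

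For the other receptors and bridges for phosphatidylserine, the list medians were 0.37 for WM164, -0.35 for SKMEL28 and 0.37 for A375, and whether the lines differed in it was not tested. In SKMEL28 cells all 6 tested were lower: MFGE8, the integrins ITGAV, ITGB3 and ITGB5, LRP1 and the scavenger receptor CD36, which fell from 11.0 to 0.482 CPM (-4.50, adjusted p = 1.75e-09 from edgeR). In WM164 cells 4 of 6 were higher (MFGE8, ITGB3, ITGB5 and ADGRB1) and none lower, with ADGRB1, an adhesion receptor for dying cells, rising from 13.7 to 53.2 CPM (1.95, adjusted p = 4.82e-11 from edgeR). In A375 cells ITGB3 rose from 0.311 to 10.2 CPM (5.03, adjusted p = 0.00260 from edgeR), with 6.05 without the GFP library of replicate 2 and 4.43 without that of replicate 1. On log2(TPM + 1) of all genes ITGB3 and ERBB3 did not pass in A375 cells (adjusted p = 0.105 and 0.124, limma). Among genes with at least 1 TPM in at least 3 libraries, 2 of 55 pathway genes passed as higher there on that scale. Of 6 engulfment genes, ELMO1, an adaptor for Rac activation, rose in WM164 (0.83) and SKMEL28 cells (1.87, from 0.623 to 2.25 CPM; not passing on log2(TPM + 1), at 0.21), and in A375 cells it was at 0.84 and did not pass (adjusted p = 0.0539, edgeR). The engulfment list had medians of 0.24, 0.03 and -0.02 in WM164, SKMEL28 and A375 cells.

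Of 11 factors described to act on AXL, 4 were higher in WM164 cells (YAP1, WWTR1, FOSL1 and JUN) and TEAD2 was lower, and in SKMEL28 cells JUN was higher and WWTR1, TEAD2, FOSL1 and HIF1A were lower. The list medians were 0.10, -0.14 and -0.10 in WM164, SKMEL28 and A375 cells. FOSL1, a FOS family member of AP-1, went from 29.9 to 48.3 CPM in WM164 cells (0.69) and from 203 to 167 CPM in SKMEL28 cells (-0.27), both passing, and was at 752 and 788 CPM in A375 cells (0.06, not passing). JUN, its partner in AP-1, rose by 1.12 in WM164 (to 21.4 CPM) and by 0.28 in SKMEL28 cells (to 22.8 CPM). TEAD2, a DNA-binding partner of YAP1, fell by -2.04 in SKMEL28 cells, but at low group means of 1.47 CPM with GFP and 0.361 CPM with MAFG. MITF, the melanocyte lineage factor, went from 439 to 280 CPM in WM164 cells (-0.65) and from 648 to 564 CPM in SKMEL28 cells (-0.20), both passing, against 28.6 and 27.4 CPM in A375 cells. The SKMEL28 call was lost without the MAFG library of replicate 1 or 2 (adjusted p = 0.0536 and 0.0525, edgeR) and with the spread of all 18 libraries (adjusted p = 0.208, edgeR).

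Receptor kinases described to pair with AXL were EGFR, ERBB3, MET and PDGFRB, with list medians of 1.44, -0.01 and 0.10 in WM164, SKMEL28 and A375 cells. EGFR rose in WM164 cells from 1.35 to 8.28 CPM (2.61, adjusted p = 9.30e-08 from edgeR), while in SKMEL28 cells it was at 1.15 and 1.13 CPM (-0.01, not passing) and in A375 cells at 156 and 172 CPM (0.13, not passing). PDGFRB rose in WM164 cells from 0.232 to 1.99 CPM (3.05, adjusted p = 5.65e-05 from edgeR), and by 3.69 without the GFP library of replicate 2. MET, the receptor for hepatocyte growth factor, fell in both melanocytic lines, from 10.3 to 4.20 CPM in WM164 (-1.30) and from 65.5 to 20.5 CPM in SKMEL28 cells (-1.68), while A375 cells had 128 and 135 CPM. The WM164 call was lost on log2(TPM + 1) (-0.46, adjusted p = 0.0567 from limma). ERBB3 rose in each line, by 0.28, 0.30 and 2.58, the last from 4.38 to 26.3 CPM in A375 cells (adjusted p = 4.75e-05, edgeR). The melanocytic marker SOX10 rose in the same A375 libraries (log2 fold change 3.68), and its part in the changes of ERBB3 and ITGB3 was not tested.

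**Figure D4:**
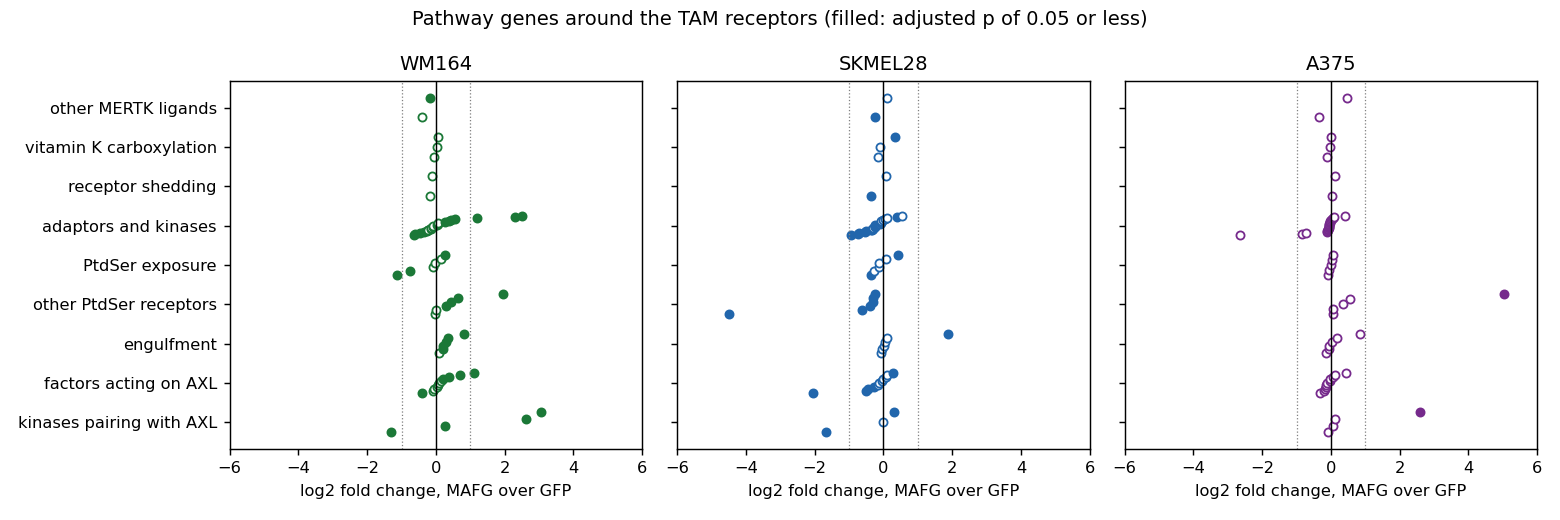
Log2 fold change of MAFG over GFP for the tested genes of 9 pathway lists (PtdSer, phosphatidylserine) in each line; each point is a gene, filled where it passed the test, and dotted lines mark a 2-fold change. WM164 cells have more filled points to the right of 0 (24 of 61) than to the left (11), SKMEL28 cells more to the left (24 of 60) than to the right (6), and A375 cells have 2.

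Among the genes whose log2 CPM ran most like AXL over the 18 libraries were PRAF2 (r = 0.977), FAM167A (0.977), TSPAN5 (0.974) and GLTP (0.974), out of 18767 genes. The libraries share a line in groups of 6, so such r values mostly follow the gap between A375 and the other lines and are given without a test. FAM167A stood at 0.499 and 1.32 CPM in WM164, 0.129 and 1.04 CPM in SKMEL28 and 18.9 and 16.5 CPM in A375 cells (GFP and MAFG each). For MERTK the genes were CLIP4 (0.956), LAMTOR5-AS1 (0.951) and then IVNS1ABP, and for TYRO3 they were LIF, JPH1 and FOXO1 (0.989, 0.989 and 0.988). For GAS6 they were ZNF486, MYEF2 and UBAP1 (0.961, 0.961 and 0.960), and for PROS1 LAMA1, BCL2A1 and ODF2L (0.991, 0.990 and 0.989). After each line's mean was removed, the genes near to AXL included ESRG (r = 0.970), KCND3 (0.970), PAPSS2 (0.965) and FAM20C (0.964). These r values mostly follow the rise with MAFG in WM164 and SKMEL28 cells and are given without a test too. ESRG had 0 counts in both lines with GFP, and with MAFG 170 to 269 in WM164 and 264 to 343 in SKMEL28 cells.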

How the data were processed

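RNA-seq counts and TPM of 18 libraries were used. Per the study's methods, cutadapt trimmed the reads and STAR aligned them to GRCh38, and the authors deposited counts of uniquely aligned reads per gene from featureCounts, without normalization. The submitters' processing notes name cutadapt 1.8.1, STAR 2.7.7a, RSEM 1.3.0 and DESeq2. The authors deposited TPM values too, and the study's methods name RSEM for TPM. These TPM values are not taken to be the deposited counts divided by a fixed gene length. Neither the annotation release nor whether counting used strand is given in the sources used here.

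With R 4.3.3, counts were normalized by TMM, filtered by filterByExpr and tested with edgeR 4.0.16 (quasi-likelihood F test), in the 6 libraries of a line for MAFG against GFP and in a single model of 18 libraries for differences of responses and levels between lines. The SE is the absolute log2 fold change divided by the square root of F. Positions and overlaps came from GENCODE release 44, matching 58472 of 58825 identifiers without version, and promoters from RefSeq. The floor was 3 counts per library. An exact permutation test of 3 libraries against 3 cannot give p below 0.1. Intervals of summed counts cover counting error only. Tests were tested on simulated data.

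Named were all members, MAFG, listed genes differentially expressed in a line, ADAM10, ADAM17, GGCX, MITF, EGFR and FOSL1, and the genes most correlated with each member, of which some are not reported here. Further listed genes were named after their values were seen. Members and lists were chosen with earlier results of these data known. Alternatives were leaving out each library, a replicate block, DESeq2 1.42.0, edgeR with DESeq2's size factors, unfiltered counts, a minimum of 10 counts per library, limma 3.58.1 on TPM (log2 with 1 or 0.1 added, for genes at 1 TPM in 3 libraries, and with 1 added for all genes), fits to all 18 libraries or to the compared ones alone, and calls without a fold limit. Figures were drawn with matplotlib 3.10.9.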

Additional observations from a re-analysis of the deposited data

Results flagged for a closer look

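The response to MAFG differed between lines for AXL and TYRO3 by a test of the difference itself, in edgeR's quasi-likelihood test of 18 libraries with Benjamini-Hochberg adjustment. For AXL, the difference in log2 fold change was -2.11 for WM164 minus SKMEL28 (adjusted p = 1.02e-05), 3.23 for WM164 minus A375 (adjusted p = 6.66e-11) and 5.34 for SKMEL28 minus A375 (adjusted p = 2.86e-12). On log2(TPM + 1) the AXL difference for WM164 minus SKMEL28 was -0.24 and did not pass (adjusted p = 0.230, limma). SKMEL28 cells with GFP had 9 to 20 AXL counts per library. For TYRO3, the WM164 minus SKMEL28 difference was 0.90 (adjusted p = 0.0115). Those against A375 share the A375 libraries.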

How the results depend on the processing

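Of 861 alternative values over 54 results on the 5 genes, 800 kept both call and direction, and 34 results did so under every alternative run. Where a value changed, the cause was not tested unless fewer libraries or genes entered the fit. The AXL rise passed under every alternative that gave a value, from 1.81 to 3.40 in WM164 and from 2.05 to 5.37 in SKMEL28 cells. Where every library needed 10 counts, AXL had no value in SKMEL28 cells, and AXL and GAS6 had none in comparisons between lines. GAS6 had none on TPM filtered for low values.

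The replicate numbers shared only a number: same-numbered libraries had correlations of deviations of -0.040 to 0.030. With them as a block, 1056, 716 and 64 genes were differentially expressed in WM164, SKMEL28 and A375 cells (1105, 736 and 105 without it), and the block turned TYRO3 in A375 cells to -0.011 and changed no call of the 5 genes.

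On TPM, values are given for log2(TPM + 1), where the filter on low values made no difference to them, then for log2(TPM + 0.1). MERTK in WM164 cells did not pass (-0.298 and -0.541), nor did PROS1 (-0.088 and -0.095), which was also lost over all 18 libraries (-0.280). Without the TPM filter, MERTK in SKMEL28 cells (-0.834), MERTK in WM164 cells with MAFG against A375 (0.517) and GAS6 in WM164 against SKMEL28 cells with GFP (-0.191) did not pass, the last also without the count filter (-1.67). In A375 cells, TYRO3 (-0.087 and -0.139), ADAM10 (-0.077 and -0.082) and FOSL1 (-0.038 on each) turned. EGFR in SKMEL28 cells turned over all 18 libraries (0.035). For WM164 minus SKMEL28, the AXL response lost its call on log2(TPM + 1) (-0.244) and GAS6 turned without the filter (0.0060). For WM164 minus A375, MERTK (-0.257 and -0.288) and PROS1 (0.164 and 0.262) turned, and TYRO3 passed on log2(TPM + 1) (1.001) and without the count filter (0.592). MERTK in WM164 against SKMEL28 cells with GFP passed (-0.752 and -1.05).

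Differentially expressed genes in WM164 cells numbered 734 where every library needed 10 counts, 384 and 617 on the TPM scales, 356 on log2(TPM + 1) unfiltered and 5065 with no fold limit. In SKMEL28 cells they numbered 226, 411, 206 and 4640, the first 3 on TPM in that order and the last with no fold limit. In A375 cells they were 173 with DESeq2, 216 without count filter, 64 with that minimum, 311 over all 18 libraries, and 19, 15 and 5 on TPM. Genes with a different response numbered 4377 for WM164 minus SKMEL28 (2573 as reported) with only the compared libraries, 1049 for WM164 minus A375 (1728) on log2(TPM + 0.1), and 657, 603 and 680 for SKMEL28 minus A375 (1784) on TPM.

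With each library left out in turn, values ran for MAFG against GFP from -0.0025 to 0.110 for GGCX in WM164 cells, in SKMEL28 cells from -0.318 to -0.173 for TYRO3, from -0.376 to 0.106 for GAS6 and from -0.329 to 0.297 for EGFR, and in A375 cells from -0.258 to 0.266 for TYRO3, from -0.104 to 0.179 for ADAM10, from -0.152 to 0.058 for GGCX and from -0.220 to 0.091 for MITF. Response differences ran from -0.069 to 0.426 for MERTK (WM164 minus SKMEL28), for WM164 minus A375 from -0.223 to 0.262 for MERTK, from 0.370 to 0.940 for TYRO3 and from -0.254 to 0.059 for PROS1, and for SKMEL28 minus A375 from -0.437 to 0.106 for MERTK, from -0.531 to 0.040 for TYRO3 and from -0.495 to -0.181 for PROS1. GAS6 ran from 1.29 to 1.63 in A375 against SKMEL28 and from -2.29 to -1.09 in WM164 against SKMEL28 cells with GFP, and from -1.82 to -1.35 in SKMEL28 cells with MAFG against A375. Differentially expressed genes in A375 cells numbered 55 (without the MAFG library of replicate 2) to 153, and 63 to 67 without one of the 3 GFP libraries. Genes with a different response between WM164 and A375 numbered 1312 to 2694, the latter without the A375 MAFG library of replicate 1.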
